A study of Arabidopsis thaliana with 8 samples.

Results

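The miRNAs miR156, miR157 and miR172, which set the pace of vegetative phase change in *A. thaliana*, were followed on arrays of whole seedlings given EBR or mock solution. Rows whose name starts with ath-miR156, ath-miR157 or ath-miR172 and whose value lay above 0.01 on at least 1 array were taken, which gave 5 of the 161 miRNAs in the table, namely miR156a, miR156h, miR157d, miR172b* and miR172e. The only further row of these families, miR172c, was at 0.01, the lowest value of the table, on all 8 arrays. The members just inside this limit were far from it, since their lowest value on any array was 0.742, and all 5 were above 0.01 on every array.

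Seedlings of the Columbia ecotype were grown for 7 days in shaken liquid medium under continuous light and then exposed for 30 or 180 min to medium holding 10 nM EBR (24-epibrassinolide, a highly active brassinosteroid) or the solvent DMSO as mock. The 4 groups are called mock and EBR30 at 30 min and mock and EBR180 at 180 min, and each was hybridised to 2 arrays. The design text speaks of 2 independent experiments at each time and does not say which arrays belong to which experiment. The arrays carry probes for miRNAs only, so the tissue could not be checked against marker transcripts, and with RNA of whole seedlings a change in cell numbers and a change in RNA per cell cannot be told apart.

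In the young plant miR156 and the closely related miR157 are abundant and repress SPL transcription factors, which promote adult leaf traits and flowering. They decline as the plant ages. SPL proteins in turn activate *MIR172* genes, and miR172 represses *AP2*-like floral repressors such as *AP2* and *TOE1*, so that the miRNA families run in opposite directions during development. Brassinosteroids are growth hormones that also act on flowering.

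RefSeq's annotation of the TAIR10.1 assembly lists 10 MIR156, 4 MIR157 and 5 MIR172 loci. The rows are named after *MIR156a* (AT2G25095), *MIR156h* (AT5G55835), *MIR157d* (AT1G48742), *MIR172b* (AT5G04275) and *MIR172e* (AT5G59505). The mature miR156a is identical to that of several other MIR156 loci, and members of a family differ by few bases, so that a row may hold signal of related miRNAs. This was not tested. The row miR172b* is the opposite arm of the *MIR172b* hairpin and not the strand known to guide repression of *AP2*-like genes.

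Each deposited value of these miRNAs was a ratio on a linear scale, with the median of that miRNA over all 8 arrays set to about 1, so it shows how a miRNA varied between arrays and not which miRNA was more abundant. Array-wide shifts were present. The median ratio of the 43 miRNAs that were above 0.01 on all arrays ran from 0.818 to 1.12 over the arrays and was lowest on both mock arrays at 30 min. The groups were therefore compared on the deposited ratios and also after subtracting from each array the median of its 43 log2 ratios (array centring), both on the log2 scale with limma and Benjamini-Hochberg adjustment over the 43 miRNAs. A miRNA was called when its adjusted p lay under 0.05. The number of arrays limits the precision, and where a group's arrays were not separate cultures the p-values reflect array-to-array spread alone. With 2 arrays a group, a lack of overlap was common. It was found for 76.7% of the 43 between EBR30 and mock and for 55.8% between EBR180 and mock. Where a group is said below to lie apart from all others, the share of the 43 was not counted.

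miR156a, whose target genes include *SPL9* and *SPL15*, had ratios of 0.742 and 0.896 in mock at 30 min, against 0.963 and 1.01 in EBR30. At 180 min the ratios were 0.994 and 1.09 in mock and 1.16 and 1.10 in EBR180. At each time both EBR arrays lay above both mock arrays. In the order of the group means, from mock at 30 min through EBR30 and mock at 180 min to EBR180, only EBR30 and mock at 180 min overlapped.

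miR156h, a family member that targets the same SPL genes, was at 0.789 and 0.815 in mock at 30 min and at 0.977 and 1.03 in EBR30. The ratios at 180 min were 1.08 and 0.982 in mock and 1.13 and 1.02 in EBR180. The mock arrays at 30 min thus stood below all others, and the other 3 groups, from EBR30 to EBR180, each overlapped with the next.

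miR157d, which also acts on SPL genes, gave 0.787 and 0.907 in mock at 30 min and 0.974 and 1.03 in EBR30. At 180 min it gave 1.10 and 1.19 in mock and 1.03 and 0.963 in EBR180. The EBR arrays were the higher ones at 30 min and the lower ones at 180 min. The EBR180 and EBR30 arrays, next to each other in the middle of the order, overlapped, while mock at 30 min lay below them and mock at 180 min above.

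miR172e, a guide strand against *AP2*-like genes, had ratios of 0.871 and 0.940 in mock at 30 min and 0.856 and 0.866 in EBR30, against 1.08 and 1.06 in mock and 1.35 and 1.23 in EBR180 at 180 min. None of its groups overlapped with another, and the share of the 43 for which this held was not counted. The order ran from EBR30 through mock at 30 min and mock at 180 min to EBR180. All 4 arrays at 180 min lay above all 4 at 30 min, as in 27.9% of the 43 miRNAs, and after array centring this was no longer so.

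miR172b* was at 0.951 and 1.09 in mock at 30 min and at 0.860 and 0.874 in EBR30. At 180 min the values were 1.01 and 1.03 in mock and 1.13 and 0.990 in EBR180. Only the EBR30 arrays stood apart, below the other 6, and the remaining groups overlapped.

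**Figure D1:**
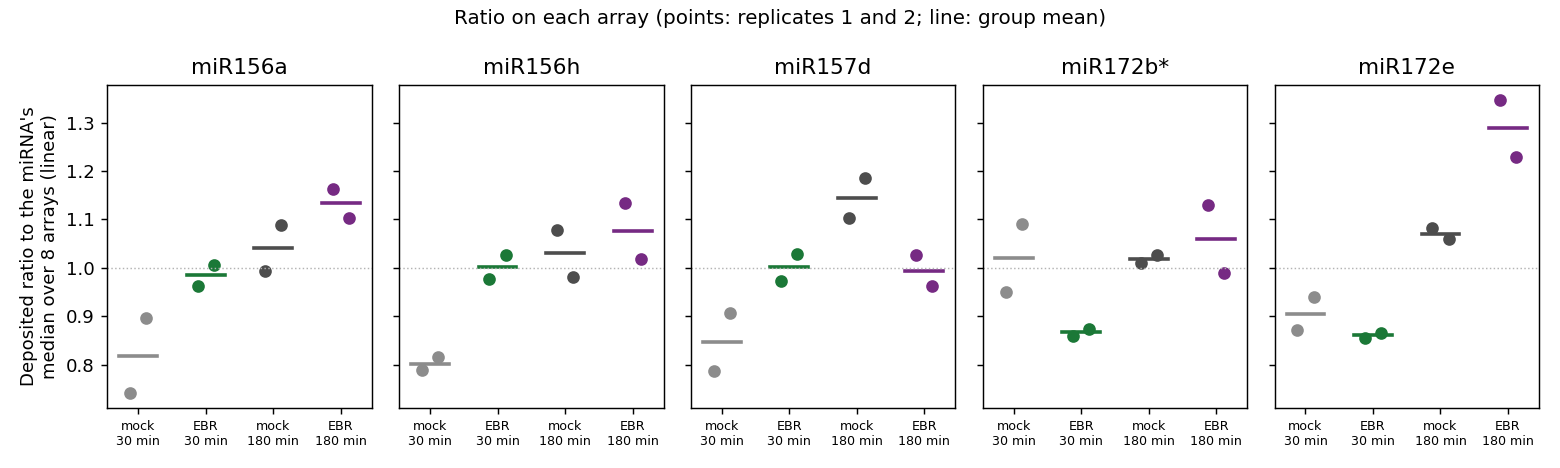
Deposited ratio of each miRNA to its own median over 8 arrays (linear y axis, not starting at 0) in the 4 groups on the x axis, with a point for each of the 2 arrays and a line at the group mean. The mock arrays at 30 min are lowest for miR156a, miR156h and miR157d, and the EBR30 arrays are lowest for miR172b* and miR172e.

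The range between arrays was modest for all of them. The highest value over the lowest was 1.57-fold for miR156a, 1.44-fold for miR156h, 1.51-fold for miR157d, 1.31-fold for miR172b* and 1.57-fold for miR172e. By the SD of the log2 ratio over the 8 arrays miR172e was at place 14 of the 43 miRNAs and miR172b* at place 35. The duplicates differed most for miR156a in mock at 30 min, by 0.27 on the log2 scale, where the median difference of all 43 miRNAs was 0.15, and least for miR172e in EBR30, by 0.02.

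At 30 min the ratios of the 3 miR156 and miR157 rows were higher, and those of the 2 miR172 rows lower, on both EBR30 arrays than on both mock arrays. In the deposited ratios miR156h rose 1.25-fold (0.802 ± 0.0188 in mock and 1.00 ± 0.0352 in EBR30, SD, n = 2 arrays). This is a log2 fold change of 0.32 with a 95% interval from 0.08 to 0.57 (adjusted p = 0.0309 from limma). It was 1 of 5 members called, while 37.2% of all 43 miRNAs were called (30.2% of the 43 higher), and the median log2 fold change was 0.24 over the members and 0.18 over the 43. The log2 fold change was 0.27 for miR156a (adjusted p = 0.0718) and 0.24 for miR157d (adjusted p = 0.111), both with intervals reaching or nearly reaching 0. The values of miR172b* and miR172e were -0.23 (adjusted p = 0.133, up to 0.496 among alternatives to this fit) and -0.07 (adjusted p = 0.674). They stood at places 40 and 38 of 43 from the highest. For each of the 5 miRNAs the EBR30 arrays did not overlap with the mock arrays, as for 76.7% of the 43.

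After array centring the calls moved from miR156 to miR172. miR172b* fell by 0.40 on the log2 scale (adjusted p = 0.000757 from limma). miR172e fell by 0.24 (adjusted p = 0.0109). These were 2 of 5 members called, against 18.6% of all 43, and 9.3% of the 43 were called lower. miR156h, miR156a and miR157d kept positive values of 0.16, 0.11 and 0.08, none of them past the threshold.

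The call of miR156h was lost without mock replicate 1 at 30 min (adjusted p = 0.112) or either EBR30 array (0.115 and 0.209 for replicates 1 and 2). When mock replicate 2 at 30 min was left out, miR156a (0.0161) and miR157d (0.0293) were called as well. After centring the call of miR172b* held without any 1 array, and that of miR172e was lost without EBR30 replicate 1 (0.0689) or replicate 2 (0.0627). miR156h and miR157d are among the miRNAs that the study selected on these same arrays.

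**Figure D2:**
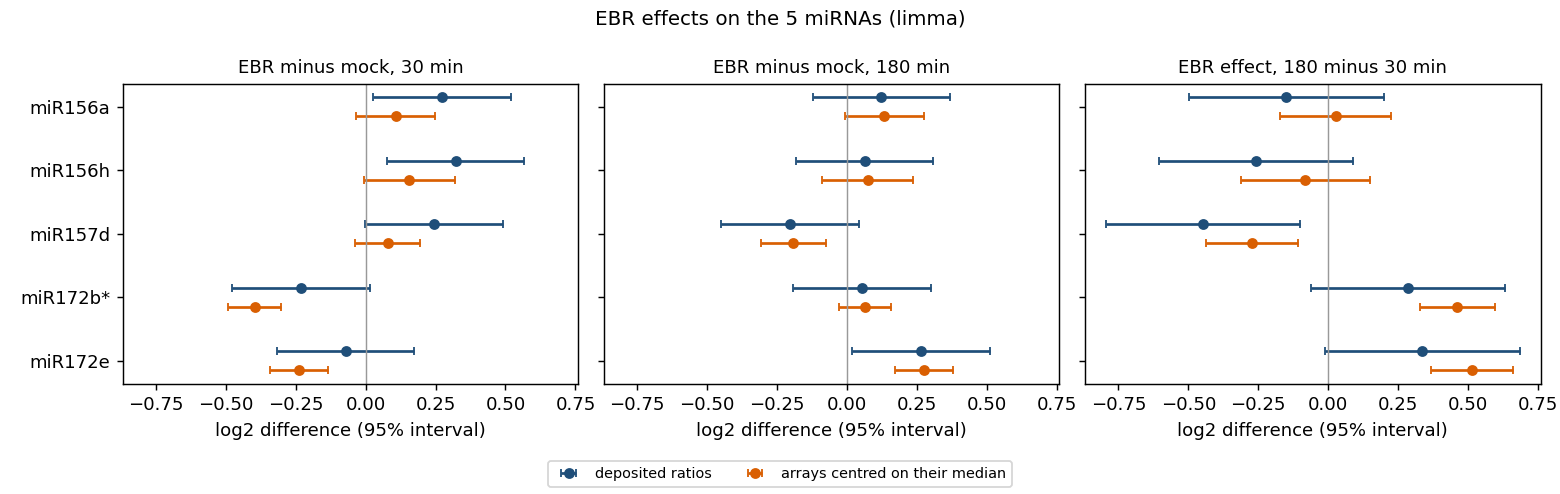
Log2 differences with 95% intervals from limma (x axis) for the 5 miRNAs (y axis), from deposited ratios (blue) and with array centring (orange). At 30 min centring moved miR172b* from -0.23 to -0.40 and miR156h from 0.32 to 0.16, while at 180 min the values from both scales lay close together.

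Because a difference between miRNAs on the same array does not depend on the scaling of that array, the 3 miR156 and miR157 rows were also set against the 2 miR172 rows within each array. The log2 ratio of the former minus that of the latter was negative for all 12 combinations of pair and array in mock at 30 min, from -0.42 to -0.05. In EBR30 it was positive for all 12, from 0.16 to 0.25. For each of the 6 pairs the EBR30 and mock values at 30 min did not overlap, and the same held for 73.3% of all 903 pairs of the 43 miRNAs. For the 6 pairs this follows from the single rows, which already did not overlap and lay in opposite directions. It therefore adds no support beyond those rows. At 180 min 7 of 12 differences were positive in mock and 4 of 12 in EBR180. The sign depends on the baseline, since each row is set to its own median. The pairs share arrays and rows, so they are not independent, and no test was made on them.

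**Figure D3:**
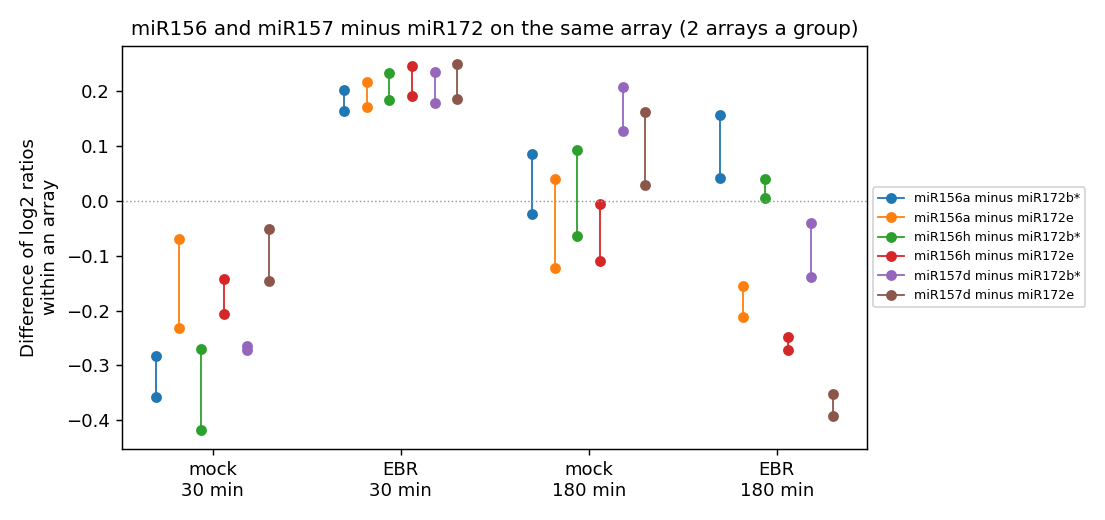
Difference of log2 ratios within an array (y axis) for the 6 pairs of a miR156 or miR157 row and a miR172 row, by group (x axis), with 1 point for each of 2 arrays joined by a line. All points lie below 0 in mock at 30 min and above 0 in EBR30, and those of EBR180 spread from -0.39 for miR157d minus miR172e to 0.16 for miR156a minus miR172b*.

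At 180 min the pattern was another. In the deposited ratios 0 of 5 members were called by limma in EBR180 against mock, where 16.3% of all 43 were called, and 1 of 5 was under 0.05 without adjustment, as were 23.3% of the 43. With each miRNA's own spread in place of the moderated one, and only the arrays at 180 min fitted, 0 members were called (0% of the 43). In that fit 0 were under 0.05 unadjusted (9.3% of the 43). The 1 member under 0.05 in the moderated fit was miR172e, at 1.07 ± 0.0155 in mock and 1.29 ± 0.0831 in EBR180 (SD, n = 2 arrays). Its log2 fold change was 0.27 with an interval from 0.02 to 0.51 (adjusted p = 0.149 from limma, up to 0.557 among alternatives to this fit). miR157d pointed the other way, with a log2 fold change of -0.20 and an interval from -0.45 to 0.04 (adjusted p = 0.333). miR156a (0.12), miR156h (0.06) and miR172b* (0.05) had values smaller than their standard error of 0.125. For miR156a and miR172e both EBR180 arrays lay above both mock arrays and for miR157d below them, and such a lack of overlap was found for 55.8% of the 43.

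At this time the median ratios of the arrays were 1.07 and 1.08 in mock and 1.12 and 1.02 in EBR180, and centring changed the values little. The standard error of miR172e was 0.0429 after centring and 0.125 before, and that of miR157d was 0.0483 after and 0.125 before, where all miRNAs shared 1 spread. After centring miR172e rose by 0.28 (adjusted p = 0.00548 from limma). miR157d fell by 0.19 (adjusted p = 0.0277). This made 2 of 5 members called against 30.2% of all 43 (16.3% higher and 14% lower). The call of miR172e held without any 1 array. That of miR157d was lost without any 1 array other than mock replicate 1 at 180 min, with adjusted p up to 0.136.

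The effect of EBR, that is EBR minus mock, differed between the times for miR157d. It was 0.45 lower on the log2 scale at 180 than at 30 min, a difference of -0.45 with an interval from -0.79 to -0.10 (adjusted p = 0.0474 from limma). This was 1 of 5 members, with 25.6% of the 43 called (16.3% lower). For miR172e and miR172b* the difference was 0.34 (adjusted p = 0.156) and 0.29 (adjusted p = 0.205). Among alternatives to this fit on the deposited ratios their adjusted p reached 0.583 and 0.768. For miR156a and miR156h the difference was -0.15 and -0.26, neither past the threshold. After array centring 3 of 5 were called, against 34.9% of the 43 (18.6% higher and 16.3% lower). These were miR157d at -0.27 (adjusted p = 0.0232 from limma), miR172b* at 0.46 and miR172e at 0.51 (adjusted p = 0.00122 each). For miR172e both EBR arrays were below both mock arrays at 30 min and above them at 180 min, and for miR157d the reverse held. Such an opposite order without overlap at both times was found for 25.6% of the 43.

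In the deposited ratios the call of miR157d was lost without mock replicate 1 (adjusted p = 0.121), EBR30 replicate 1 (0.0882) or EBR30 replicate 2 (0.160) at 30 min, and without mock replicate 2 (0.108) or EBR180 replicate 2 (0.0970) at 180 min. After centring it was lost without 6 of the 8 arrays, with adjusted p up to 0.0868, while those of miR172b* and miR172e held without any 1 array.

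Between 30 and 180 min the deposited ratios in mock rose for 38 of the 43 miRNAs, and both mock arrays at 30 min had the lowest medians. In the deposited ratios miR157d rose by 0.44 on the log2 scale (adjusted p = 0.00168 from limma), miR156h by 0.36 (adjusted p = 0.0101) and miR156a by 0.35 (adjusted p = 0.0108). These 3 of 5 members stood against 65.1% called among all 43 (58.1% higher), whose median difference was 0.29. miR172e had a log2 difference of 0.24 (adjusted p = 0.0717) and miR172b* of 0.00, with an interval from -0.25 to 0.25. After array centring none of the miR156 and miR157 calls was left, with differences of 0.13, 0.06 and 0.05, and miR172b* was the only member called. It fell by 0.30 (adjusted p = 0.00151 from limma), where the deposited ratios gave 0.00. Of the 43, 34.9% were called (18.6% lower).

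The call of miR156a in mock was lost without mock replicate 1 at 30 min (difference 0.22, adjusted p = 0.175) or mock replicate 2 at 180 min (0.0829), and that of miR156h without mock replicate 1 at 180 min (0.0782). miR172e was called without either EBR180 array (0.0346 each) or without mock replicate 2 at 30 min (0.0381).

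In the EBR-treated seedlings miR172e rose by 0.58 from 30 to 180 min, with an interval from 0.33 to 0.83, or 1.50-fold (adjusted p = 6.91e-05 from limma). Among alternatives to this fit on the deposited ratios its adjusted p reached 0.197. It was the only member called on the deposited ratios, where 18.6% of the 43 were (16.3% higher), and it had place 3 from the highest of the 43. miR172b* had a difference of 0.29 (adjusted p = 0.0975), miR156a of 0.20, miR156h of 0.10 and miR157d of -0.01. After array centring miR172e rose by 0.45 (adjusted p = 0.000598 from limma) and miR172b* by 0.16 (adjusted p = 0.0266), 2 of 5 against 27.9% of the 43. The rise of miR172e was called without any 1 array on both scales. miR172b* was called on the deposited ratios without either mock array at 30 min (0.0446 each) or without EBR180 replicate 2 (0.0437), and after centring its call was lost without any 1 array of EBR30 or EBR180, with adjusted p up to 0.164.

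**Figure D4:**
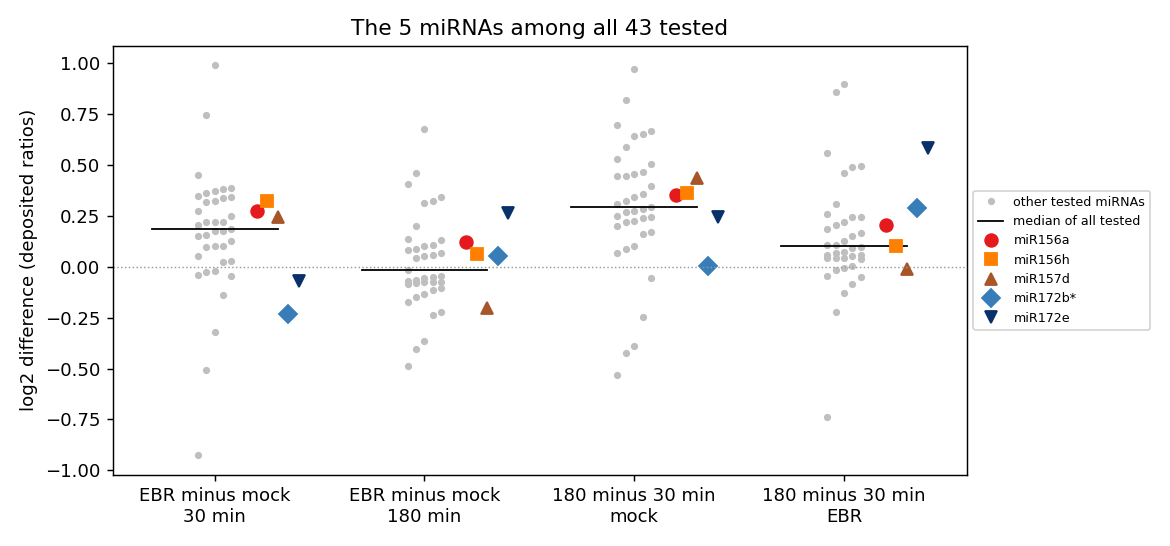
Log2 differences in deposited ratios (y axis) of the 43 tested miRNAs in 4 comparisons (x axis), with the 5 miRNAs as coloured symbols, the others in grey and a black line at the median of all. miR172e lies at 0.58 in EBR-treated seedlings between 30 and 180 min, where the median of all is 0.10, and miR172b* at -0.23 in EBR30 against mock, where it is 0.18.

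Over the 4 groups together, in the moderated F-test of limma, 4 of 5 members passed the adjusted threshold, with 62.8% of the 43 called. The smallest adjusted p was that of miR172e (2.28e-05), and miR172b* did not pass (0.124). After array centring the members that passed were miR172b* and miR172e (0.00164 for each), with 48.8% of the 43 called. Fewer members passed on the deposited ratios when mock replicate 1 at 30 min, the array with the lowest median ratio (0.818), was left out. The share of the 43 passing in that fit is not given, so the drop cannot be assigned to the members alone. In the methods' test over the groups, in which each miRNA has its own spread, 3 of 5 members lay under 0.05 unadjusted, beside 51.2% of the 43, and 1 after adjustment, miR172e (0.0337), beside 20.9% of the 43. With quantile normalization the members called were 2 in EBR30, 2 in EBR180, 3 for the difference between times, 1 in mock over time, 1 with EBR over time and 2 over the 4 groups. Of the 43 miRNAs 14%, 25.6%, 32.6%, 23.3%, 25.6% and 51.2% were called in the same comparisons.

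The pattern over the arrays was compared with that of the other tested miRNAs by Pearson's r of the centred log2 ratios over the 8 arrays, as a description, since arrays of a group are not separate conditions. Most like miR172e were miR171a (r = 0.90) and miR171b (r = 0.86). For miR172b* they were miR397a (r = 0.95) and miR398b (r = 0.78), for miR156h miR162a (r = 0.88) and miR160a (r = 0.76), for miR156a miR169a (r = 0.78) and miR160a (r = 0.59), and for miR157d miR161.2 and miR161.1 (r = 0.73 each). Before centring these values lay between 0.55 and 0.97.

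Other miRNAs linked to age or flowering (miR159, miR319, miR390, miR170 and miR171, miR169, miR399 and miR824) had 20 rows, of which 11 were tested. In EBR30 against mock 5 of 11 were called higher and 0 lower in the deposited ratios, where 37.2% of the 43 were called, and 9 of 11 values were above 0. After centring 2 were called higher and 0 lower, with 18.6% of the 43 called, and 5 of 11 values were above 0. In EBR180 against mock 2 were called higher and 0 lower (16.3% of the 43 called), and after centring 3 higher and 1 lower (30.2% of the 43 called), with 8 of 11 values above 0 on both scales. Those called at 180 min on the deposited ratios were miR399b, which acts on the phosphate regulator *PHO2*, with a log2 fold change of 0.46, and miR171a, which acts on *HAM* genes of the shoot meristem, with 0.34. In EBR-treated seedlings between 30 and 180 min miR171a (0.56), miR171b (0.49) and miR170 (0.46) rose in the deposited ratios, beside 0.58 for miR172e. These were 3 of 11 called higher, beside 16.3% of the 43. In mock over the same time 6 of 11 were called higher, beside 58.1% of the 43. Among them were miR170 (0.64) and miR171b (0.28), while miR171a (0.24) was not called. After centring 4 were called higher and 1 lower in mock over time (34.9% of the 43 called). There miR170 was at 0.33, and miR171b, at -0.02, was no longer called. With EBR over time 3 were called higher and 0 lower after centring (27.9% of the 43 called).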

How the data were processed

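Single-colour Agilent arrays with Cyanine 3-labelled total RNA were read with Agilent Feature Extraction 9.1, per the submitters' processing notes, and analysed in GeneSpring by the authors with the median of all samples as baseline. For 43 of 161 miRNAs the deposited value is a linear ratio with the miRNA's median over the arrays as unit. The others, 114 at 0.01 throughout and 4 on part of the arrays, were not tested. Background correction and scaling between arrays are not given in the sources used here.

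The log2 ratios were fitted with limma 3.58.1 in R 4.3.3, with a mean for each of the 4 groups, all 8 arrays and no block. The prior gave all miRNAs a common spread on the deposited ratios but not after centring, so calls can differ through the spread alone. The steps were tested on simulated data. Every row of the 3 families was named, and for each member the 2 most alike of the other miRNAs. Members and lists were chosen with earlier results of these data known. Alternatives were 3 scalings, a replicate block, a trended robust prior, each miRNA's own spread, the compared groups only, log2 of the ratio plus 1, no filter, adjustment over all 161 miRNAs and each array left out. For comparisons between a pair of groups the own-spread fit used only the arrays of that pair, so both the arrays and the spread differed. Added after the data were seen were array centring combined with each array left out, with a block and with own spread.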

Additional observations from a re-analysis of the deposited data

Results flagged for a closer look

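The EBR effect differed between 30 and 180 min in limma for miR157d, by -0.45 on the log2 scale in the deposited ratios and by -0.27 after array centring. It also differed for miR172b* by 0.46 and for miR172e by 0.51 after array centring, while in the deposited ratios these differences did not pass the threshold. These calls were 1 of 5 members in the deposited ratios, beside 25.6% of the 43, and 3 of 5 after centring, beside 34.9%. With each miRNA's own spread, on the deposited ratios, 0 members were called, and the share of the 43 in that fit is not given. The median difference over the 43 miRNAs was -0.24 in the deposited ratios and -0.07 after centring. The part of the array-wide shift of the mock arrays at 30 min in these differences was not separated further.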

How the results depend on the processing

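The number of members called changed with the scaling between arrays, the estimate of the spread and single arrays. Centring also changed the prior spread, so calls gained with it need not reflect the scaling alone. With array centring, on all tested miRNAs or on those outside the 3 families, and with quantile normalization it was 2 in place of 1 for EBR30, 2 in place of 0 for EBR180, 3 in place of 1 for the difference between times, 1 in place of 3 for mock over time and 2 in place of 4 over the 4 groups. With EBR over time it was 2 in place of 1 for both centrings. With each miRNA's own spread it was 0 for EBR30, the difference between times, mock over time and EBR over time, and 1 over the 4 groups. Adjusted over all 161 miRNAs or with no filter on low values it was 0 for EBR30 and the difference between times, and with no filter 2 over the 4 groups. Without 1 array it ranged from 0 to 3 for EBR30, 0 to 1 for the difference between times, 2 to 4 for mock over time, 1 to 2 for EBR over time and 1 to 5 over the 4 groups, and it was 0 for EBR180 throughout. Shares called among all tested miRNAs are given above for the deposited ratios, array centring and quantile normalization. With own spread they are given only for EBR180 and over the 4 groups. The other counts have no such share beside them. They therefore cannot show whether a change concerned the members alone or the tested miRNAs in general. The cause was not tested.

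Signs turned only for values that were not called in the deposited ratios. In array centring, centring on the other miRNAs and quantile normalization the difference of the EBR effects of miR156a was 0.027, 0.031 and 0.077, the change over time in mock was -0.30, -0.30 and -0.25 for miR172b* and -0.061, -0.060 and -0.029 for miR172e, and that of miR156h with EBR was -0.027, -0.021 and -0.056. The change of miR172b* in mock was -0.00049 with log2 of the ratio plus 1. Without 1 array it ranged from -0.098 to 0.10. The EBR180 effect ranged from -0.015 to 0.14 for miR156h and from -0.041 to 0.15 for miR172b*, and the change of miR157d with EBR from -0.056 to 0.036.

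With the replicate number as a block the counts were the same as without it in all 6 comparisons (1 for EBR30, 0 for EBR180, 1 for the difference between times, 3 for mock over time, 1 for EBR over time and 4 over the 4 groups). No share called among all tested miRNAs is given for the fits with a block, on either scale. The differences between replicates 1 and 2 correlated between groups at 0.11 to 0.36 across the 43 miRNAs. All 6 correlations were positive, but the labels do not say that a number marks an experiment and there are only 2 numbers, so the block was kept as an alternative. After array centring the block kept all 10 calls of members in the 5 comparisons of groups, and the counts with it against without it were 2 and 2 for EBR30, 2 and 2 for EBR180, 3 and 3 for the difference between times, 2 and 1 for mock over time, 3 and 2 for EBR over time and 4 and 2 over the 4 groups.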
